A study of Mus musculus with 17 samples.

Results

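The genes described here are the receptor chains for interleukin-4 (IL-4) and interleukin-13 (IL-13), the signalling protein STAT6 and a set of genes known to respond to these cytokines, as measured in mouse eosinophils. They are Il4ra, Il13ra1, Stat6, Retnla, Chil3 (also listed as Chi3l3), Tgm2, Ccl11, Ccl24, Ccl17 and Ccl22. They were chosen by gene symbol, with earlier results of these data known, so comparing them with all genes is a description only. All 10 were found, each with 1 probe set, among the 22180 genes measured. All mice carried the CC10-IL13 transgene, which makes IL-13 when doxycycline (Dox) is fed. The CC10 promoter is that of club cells of the airway. The knockout mice were CC10-IL13Tg/Pirb-/- and their littermate controls, called wildtype here, were CC10-IL13Tg/Pirb+/+, with males and females aged 6 to 8 weeks. The deleted gene encodes PIR-B, a receptor that restrains myeloid cell activation. With 2 weeks of Dox, eosinophils were taken from the esophagus of knockout (3 arrays) and wildtype mice (3 arrays) and from the bone marrow of knockout (3 arrays) and wildtype mice (3 arrays). Without Dox, only marrow was sampled, from knockout (3 arrays) and wildtype mice (2 arrays). Cells were sorted as CD45+, SiglecF+ and CCR3+. The esophagus was digested with collagenase and the marrow was not, so tissue and digestion cannot be told apart. Because no esophageal array came from mice without Dox, the effect of Dox could be compared in marrow only. The labels do not say whether replicates were separate animals, so the p-values measure the spread between these samples, which may be technical.

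IL-4 and IL-13 share a receptor made of IL-4Rα, encoded by Il4ra, and IL-13Rα1, encoded by Il13ra1. Binding activates JAK kinases, which phosphorylate STAT6, and STAT6 then enters the nucleus and binds DNA. In mouse macrophages this pathway induces Retnla, a secreted resistin-like protein, Chil3, a secreted chitinase-like protein, and Tgm2, the enzyme transglutaminase 2. The same cytokines induce the eotaxins Ccl11 and Ccl24, which attract eosinophils through CCR3, and Ccl17 and Ccl22, which attract T cells through CCR4.

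STAT6 is known to bind the palindrome TTCNNNNGAA, and STAT proteins in general bind TTCNNNGAA. Promoter windows of 300 bases, from 250 before to 50 after the annotated start, were taken from RefSeq (GRCm38.p6) and held 7 of the 10 genes. Tgm2, Ccl11 and Ccl24 were not matched. Both motifs read alike on either strand, and the 2 spacings cannot match the same letters. The windows of Retnla, Chil3 and Ccl17 held a match and are shown for that reason alone, whatever the result of the gene. Capitals mark the motif, which lies 145 to 136 bases before the start in Retnla, 172 to 164 in Chil3, and 154 to 145 and 99 to 91 in Ccl17.
Retnla chr16:48842359-48842658 (+ strand): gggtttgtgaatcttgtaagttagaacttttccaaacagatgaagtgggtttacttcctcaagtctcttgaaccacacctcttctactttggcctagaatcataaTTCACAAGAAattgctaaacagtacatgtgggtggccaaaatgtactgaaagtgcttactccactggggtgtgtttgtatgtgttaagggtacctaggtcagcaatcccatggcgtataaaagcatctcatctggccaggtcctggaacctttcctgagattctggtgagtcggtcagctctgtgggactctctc
Chil3 chr3:106167515-106167814 (- strand): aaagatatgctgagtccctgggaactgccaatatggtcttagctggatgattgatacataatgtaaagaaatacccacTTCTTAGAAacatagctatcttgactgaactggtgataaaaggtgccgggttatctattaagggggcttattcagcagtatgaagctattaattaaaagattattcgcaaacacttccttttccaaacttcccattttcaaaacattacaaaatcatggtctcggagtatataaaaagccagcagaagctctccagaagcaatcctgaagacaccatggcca
Ccl17 chr8:94810203-94810502 (+ strand): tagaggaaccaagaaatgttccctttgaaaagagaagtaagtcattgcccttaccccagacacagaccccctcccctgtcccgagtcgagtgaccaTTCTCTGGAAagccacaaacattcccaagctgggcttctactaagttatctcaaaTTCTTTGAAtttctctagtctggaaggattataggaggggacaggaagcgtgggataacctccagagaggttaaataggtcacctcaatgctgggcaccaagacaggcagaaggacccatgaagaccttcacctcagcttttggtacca
TTCNNNNGAA occurred in 6.95% and TTCNNNGAA in 8.3% of all 32851 windows of this length, and at least 1 of them in 14.6%. A match is a run of letters and not a measured site, and the 4 matched genes without one (Il4ra, Il13ra1, Stat6 and Ccl22) had no such letters in these windows only.

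The values are the deposited log values, taken as log2 and centred on each probe set. For nearly all probe sets 0 lies midway between 2 neighbouring arrays, so a value says nothing of how bright a gene was. The values cannot be compared between genes. The third replicate of knockout marrow without Dox was unlike the others. The SD of its values across genes was 0.802, while the remaining marrow arrays had 0.231 to 0.284 and those of the esophagus 0.511 to 0.612, and it correlated with its own group at a mean r of -0.0268. Results that rest on it are given with and without it. Pirb did not pass between the genotypes in the esophagus or in marrow with or without Dox (-0.28 ± 0.39, SE, in the esophagus), and since it is not known whether its probe set lies in the deleted part, this checks nothing about the labels. Of 10 measured eosinophil genes, 3 were higher and 4 lower in the esophagus than in marrow in knockout, and 1 was higher and 3 lower in wildtype. The granule protein genes Prg3, Prg2 and Epx were lower in both genotypes and Ear6 in knockout, with a difference for Prg3 of -4.91 ± 0.52 in knockout and -5.22 ± 0.52 in wildtype. Alox15 was higher in both genotypes, and Siglecf and Il5ra in knockout, by 1.14 ± 0.16 and 2.44 ± 0.50. Between genotypes in the esophagus, 8 of the 10 had a positive difference, knockout minus wildtype, and 1 passed, Siglecf (0.95 ± 0.16, adjusted p = 0.0259). Of 13 neutrophil markers, 10 were lower in the esophagus in knockout and 9 in wildtype, and 1, Retnlg, was higher in both. The Y-linked gene Uty was lower in wildtype esophageal than in wildtype marrow eosinophils, by 1.02 ± 0.22 (limma, adjusted p = 0.0101). Between genotypes in the esophagus, all 3 measured Y-linked genes had a positive difference, knockout minus wildtype (median 0.88), and 0 passed. Their array means were -0.16 to 0.83 in knockout and -0.66 to 0.14 in wildtype, so the mix of sexes may differ there.

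With Dox, the clearest differences in this gene set were between tissues. Esophageal eosinophils of both genotypes had more Tgm2 and Retnla than marrow eosinophils, by 2.0 to 4.07 log2 units. Stat6 was higher and Chil3 lower in the esophagus in knockout eosinophils, and Ccl11 was higher there in wildtype eosinophils. Each of these calls was lost in some alternative settings. Their tissue effects were not shown to differ between genotypes, since the interaction did not pass (0.48 ± 0.73 for Stat6, -1.63 ± 1.26 for Chil3, -0.25 ± 0.27 for Ccl11). In sorted bulk samples, fewer cells of a type and less RNA per cell cannot be told apart. Each contrast was tested with limma over all 22180 genes, and a gene passed at a Benjamini-Hochberg adjusted p under 0.05.

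In knockout, 3 of the 10 genes were higher in the esophagus and 1 was lower, against 4.5% of all genes higher, 6.04% lower and 10.5% called in either direction. In wildtype, 3 were higher and 0 lower, against 8.11% of all genes higher, 7.06% lower and 15.2% in either direction. The shares of all genes rest in part on the third replicate of knockout marrow without Dox. Without it, 4 of the 10 genes passed in wildtype, while 8092 of 22180 genes passed, 5569 higher and 2523 lower. The wildtype count was then near the share of all genes. In knockout, 4 of the 10 passed without that array, while 4175 of 22180 genes passed, 2163 higher and 2012 lower. The shares with all arrays also apply to the tissue counts of the other gene lists, which were not counted again without that array. The median difference over the 10 genes was 0.71 in knockout and 0.98 in wildtype, while over all genes it was 0.06 in knockout and 0.14 in wildtype. The arrays of the 2 tissues did not overlap for 7 of the 10 genes in knockout, where 44% of all genes were apart, and for 4 of 10 in wildtype, where 46.1% were apart. The count of genes apart is therefore near the background in wildtype.

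**Figure D1:**
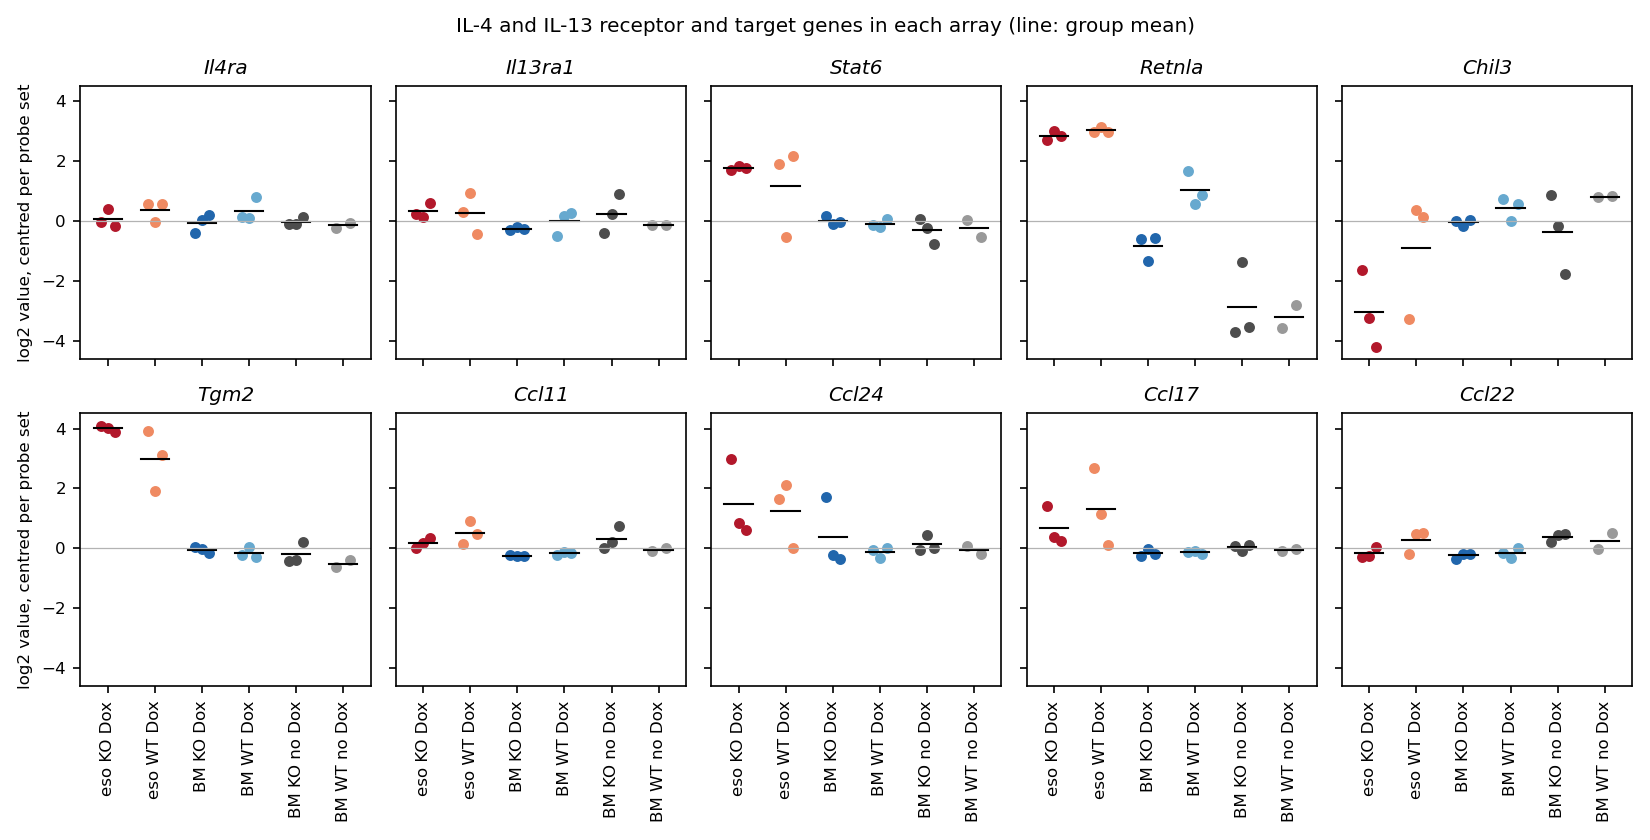
Log2 value of each gene, centred per probe set, in each array (points) of the 6 groups, with the group mean as a line (eso, esophagus; BM, bone marrow; KO, knockout; WT, wildtype). Retnla is at 2.73 or above in the 6 esophageal arrays, and Tgm2 lies between 1.92 and 4.10 in the esophagus and between -0.63 and 0.21 in marrow.

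Neither receptor chain passed the test in any contrast with all arrays fitted together. Il4ra, the chain that both cytokines share, had -0.02, 0.42 and -0.16 in knockout esophageal eosinophils and 0.58, -0.05 and 0.57 in wildtype esophageal eosinophils. Marrow with Dox gave -0.38, 0.02 and 0.21 in knockout and 0.15, 0.10 and 0.80 in wildtype. These ranges overlapped, and the tissue difference was 0.13 (95% interval -0.37 to 0.62) in knockout and 0.01 (-0.48 to 0.51) in wildtype. The whole range of Il4ra over the 17 arrays was 1.19 log2 units, larger than that of 70.4% of genes.

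Il13ra1, the chain that completes the receptor for IL-13, had 0.25, 0.13 and 0.59 in knockout esophageal eosinophils, against -0.31, -0.22 and -0.28 in knockout marrow eosinophils with Dox. All 3 esophageal values lay above all 3 marrow values, but the difference of 0.59 ± 0.34 did not pass (adjusted p = 0.342). Its range over the 17 arrays, 1.44, was larger than that of 77.0% of genes. In a fit of just these groups it passed (adjusted p = 0.0248). In wildtype the arrays overlapped, with 0.29, 0.95 and -0.43 in the esophagus and -0.49, 0.18 and 0.29 in marrow (0.27 ± 0.34, adjusted p = 0.556). Il13ra1 had a Pearson r of 0.65 with the median of all genes on each array, or 0.50 without marrow knockout no Dox replicate 3.

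Stat6, the transcription factor downstream of the receptor, had 1.69, 1.83 and 1.78 in knockout esophageal eosinophils, against 0.15, -0.09 and -0.03 in knockout marrow with Dox. The groups were far apart and each was tight, and Stat6 rose by 1.75 ± 0.52 (SE, 3.37-fold, adjusted p = 0.0464). In wildtype esophageal eosinophils it had 1.92, -0.55 and 2.19, against -0.15, -0.19 and 0.07 in wildtype marrow. Replicate 2 lay below every wildtype marrow array while the other 2 lay above every marrow array, and the difference of 1.28 ± 0.52 did not pass (adjusted p = 0.10). Without that replicate it was 2.14 (adjusted p = 0.000100), and with array weights 1.71 (adjusted p = 0.00678). The knockout call was near the threshold, since it was lost when any of 13 of the 17 arrays was left out (1.70 to 1.82, adjusted p 0.0520 to 0.125). It was kept only without marrow knockout no Dox replicate 3 or any of the 3 wildtype esophageal arrays. Median centring, quantile normalization and the Y-linked covariate also ended it, with adjusted p of 0.0517 to 0.0856 and a difference as low as 1.12. The tissue difference of Stat6 did not differ between the genotypes at the threshold of the interaction test (0.48 ± 0.73, adjusted p = 0.971), and without esophagus wildtype replicate 2 that value was -0.39.

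Tgm2, which cross-links proteins, separated the tissues completely. It had 4.10, 4.03 and 3.90 in knockout esophageal eosinophils, against 0.04, -0.03 and -0.17 in knockout marrow eosinophils with Dox. In wildtype the values were 3.92, 1.92 and 3.13 in the esophagus and -0.22, 0.03 and -0.29 in marrow. The lowest esophageal array, at 1.92, lay above the highest of all marrow arrays, which was the outlying array at 0.21. Tgm2 rose by 4.07 ± 0.35 in knockout (SE, 16.7-fold, adjusted p = 1.21e-05) and by 3.15 ± 0.35 in wildtype (8.88-fold, adjusted p = 0.000139). Both calls were kept under all 24 alternative settings run.

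Retnla, also called FIZZ1 or RELMα, varied more than almost any other gene, with a range of 6.86 log2 units over the 17 arrays that was larger than in 99.99% of genes. In knockout it had 2.73, 3.00 and 2.85 in the esophagus, against -0.59, -1.33 and -0.55 in marrow with Dox. In wildtype it had 2.98, 3.15 and 2.96 in the esophagus, against 1.68, 0.55 and 0.86 in marrow with Dox. The esophageal arrays of both genotypes lay close together, and those of marrow did not overlap with them. Retnla rose by 3.68 ± 0.50 in knockout (SE, 12.8-fold, adjusted p = 0.000406) and by 2.0 ± 0.50 in wildtype (3.99-fold, adjusted p = 0.0206). The knockout call was kept in all 24 alternative settings. In wildtype it was lost after quantile normalization (0.77, adjusted p = 0.390). It was also lost without marrow wildtype Dox replicate 2 or 3, or without esophagus wildtype replicate 2 (1.76 to 1.94, adjusted p 0.0594 to 0.0755). The difference between these tissue effects, 1.69 ± 0.71, did not pass (adjusted p = 0.962).

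Chil3, also called Ym1, went the other way. Knockout esophageal eosinophils had -1.64, -3.25 and -4.19, against -0.01, -0.16 and 0.05 in knockout marrow with Dox. In wildtype the esophageal values were -3.26, 0.38 and 0.13, against 0.74, 0.01 and 0.56 in marrow. Replicate 1 of the wildtype esophagus was as low as the knockout arrays, and the other 2 lay within the marrow range. Chil3 fell by 2.98 ± 0.89 in knockout (SE, 7.92-fold, adjusted p = 0.0495), and the wildtype difference of -1.35 ± 0.89 did not pass (adjusted p = 0.270). The knockout call lay at the threshold and was lost when any of 11 arrays was left out (-3.05 to -2.40, adjusted p 0.0606 to 0.190). It was kept without marrow knockout no Dox replicate 1 or 3, any wildtype esophageal array or esophagus knockout replicate 1. Median centring, the replicate block and the lowest-numbered probe set of each gene also ended it, with adjusted p of 0.0505 to 0.0744. Neutrophil markers moved the same way in the esophagus, with a mean of -2.44 to -2.28 per array in knockout and -3.20 to -2.37 in wildtype, against -0.03 to 0.34 in knockout and 0.01 to 0.37 in wildtype marrow with Dox. Their part in the Chil3 result was not tested.

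Ccl11, eotaxin-1, had 0.14, 0.90 and 0.48 in wildtype esophageal eosinophils, against -0.24, -0.11 and -0.16 in wildtype marrow with Dox. It rose by 0.68 ± 0.19 (SE, 1.60-fold, adjusted p = 0.0323). In knockout it had 0.00, 0.18 and 0.36 in the esophagus and -0.22, -0.27 and -0.26 in marrow, also apart, with a difference of 0.43 ± 0.19 that did not pass (adjusted p = 0.196). The wildtype call was lost without any of the 3 wildtype marrow Dox arrays or without esophagus wildtype replicate 2 or 3 (0.48 to 0.71, adjusted p 0.0694 to 0.120). It was also lost with only the groups compared or with the Y-linked covariate (adjusted p 0.0668 to 0.0791), and the covariate lowered it to 0.42. In knockout, by contrast, 4 settings brought it past the threshold (0.40 to 0.68, adjusted p 0.00997 to 0.0305): quantile normalization, only the groups compared, the Y-linked covariate and array weights. Ccl11 followed the median of all genes on each array closely (Pearson r = 0.91 over 17 arrays and 0.94 without the outlying array), the arrays being the points of both measures. Of 11 fibroblast and endothelial markers, Col3a1, Col1a2 and Pecam1 were higher in the esophagus in knockout and Col3a1 in wildtype. Their array means were 0.25 to 0.45 in knockout and 0.13 to 0.38 in wildtype esophagus, against -0.13 to -0.06 in knockout and -0.08 to -0.05 in wildtype marrow with Dox. Their part in the Ccl11 result was not tested.

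Ccl24, eotaxin-2, was uneven within groups. It had 2.99, 0.83 and 0.61 in knockout esophageal eosinophils, against 1.73, -0.21 and -0.35 in knockout marrow with Dox. Wildtype eosinophils had 1.64, 2.11 and -0.01 in the esophagus, against -0.07, -0.33 and 0.00 in marrow. In both knockout groups with Dox replicate 1 was the high one, and the tissues overlapped in both genotypes. The differences of 1.09 ± 0.68 in knockout (adjusted p = 0.376) and 1.39 ± 0.68 in wildtype (adjusted p = 0.155) did not pass.

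Ccl17, a ligand of CCR4, had 1.41, 0.38 and 0.25 in knockout esophageal eosinophils, against -0.24, -0.04 and -0.19 in knockout marrow with Dox. In wildtype it had 2.68, 1.13 and 0.11 in the esophagus, against -0.12, -0.10 and -0.19 in marrow. The tissues did not overlap in either genotype, although the esophageal arrays were spread widely and the marrow arrays were not. The differences of 0.84 ± 0.47 in knockout (adjusted p = 0.315) and 1.44 ± 0.47 in wildtype (adjusted p = 0.0535) did not pass. In wildtype it passed without marrow knockout no Dox replicate 3 (1.44, adjusted p = 0.0363), without esophagus wildtype replicate 3 (2.04, adjusted p = 0.00748) and without esophagus knockout replicate 1 (1.44, adjusted p = 0.0490). It also passed after quantile normalization, with the Y-linked covariate and with the replicate block (adjusted p 0.0181 to 0.0451), and in knockout with array weights (adjusted p = 0.0494). Dendritic cell markers were higher in the same arrays. Of 10 measured, Cd209a, Itgax and H2-Ab1 passed in both genotypes, and the array means were 0.44 to 0.60 in knockout and 0.31 to 0.98 in wildtype esophagus, against -0.28 to -0.10 in knockout and -0.12 to 0.07 in wildtype marrow with Dox. Their part in the Ccl17 values was not tested.

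Ccl22, the other CCR4 ligand, had the smallest range of the 10 genes, 0.85 log2 units, near that of the middle gene (0.837). It had -0.29, -0.25 and 0.03 in knockout esophageal eosinophils, against -0.35, -0.18 and -0.20 in knockout marrow with Dox. In wildtype it had -0.19, 0.49 and 0.50 in the esophagus, against -0.15, -0.32 and 0.02 in marrow. The tissues overlapped, and neither the knockout difference (0.07 ± 0.19, adjusted p = 0.865) nor the wildtype difference (0.41 ± 0.19, adjusted p = 0.133) passed. Without esophagus wildtype replicate 1 the wildtype difference was 0.64 (adjusted p = 0.0213), and with array weights 0.55 (adjusted p = 0.0296). Like Ccl11, Ccl22 followed the median of all genes on each array (Pearson r = 0.71 over 17 arrays and 0.72 without the outlying array).

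**Figure D2:**
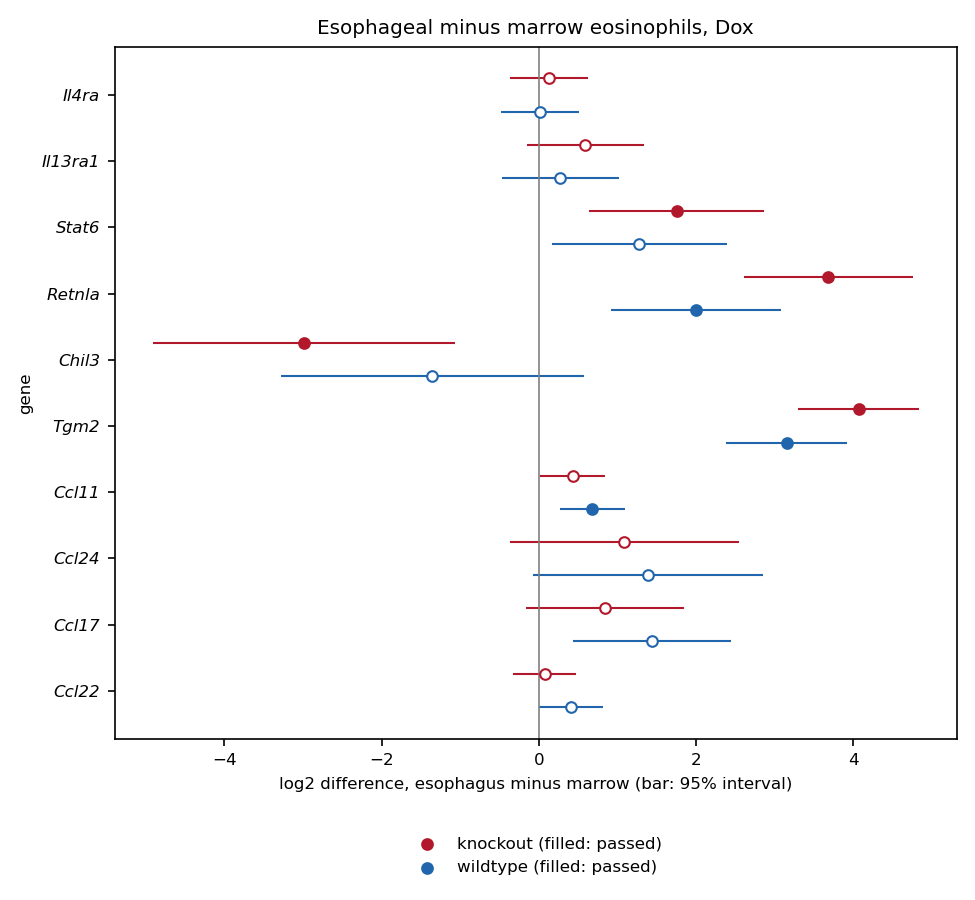
Log2 difference, esophageal minus marrow eosinophils with Dox, for each gene in knockout and wildtype mice, with bars for the 95% interval and filled points for differences that passed the test. Tgm2 (4.07 in knockout, 3.15 in wildtype) and Retnla (3.68 in knockout, 2.0 in wildtype) are filled in both genotypes, and Chil3 is the one gene left of 0.

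The series title concerns PIR-B in esophageal eosinophils exposed to IL-13, which the comparison of knockout with wildtype esophageal eosinophils addresses. None of the 10 genes passed there, against 0.347% of all genes (77 of 22180). At an unadjusted p under 0.05, limma gave 3 of the 10, namely Tgm2, Chil3 and Ccl22, against 14.7% of all genes. The groups overlapped for all 10 genes, where 23.3% of all genes were apart. The median difference was -0.23 over the 10 genes and -0.10 over all genes.

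Tgm2 was higher in knockout than in wildtype esophageal eosinophils by 1.02 (95% interval 0.25 to 1.79, adjusted p = 0.248). The overlap came from wildtype replicate 1, at 3.92, which lay above the lowest knockout array at 3.90. Without that replicate the difference was 1.48 (adjusted p = 0.0221), and with array weights 0.99 (adjusted p = 0.0473). Without wildtype replicate 2, the lowest array at 1.92, it was 0.49 (adjusted p = 0.557). Chil3 was lower in knockout by 2.11 (interval -4.04 to -0.19, adjusted p = 0.308), and the same wildtype replicate, at -3.26, lay among the knockout arrays. Without it the difference was -3.29 (adjusted p = 0.0361). The Chil3 call was gained only by leaving out that replicate. Leaving out wildtype replicate 2 instead gave -1.46 for Chil3 (adjusted p = 0.673). Ccl22 differed by -0.43 (interval -0.84 to -0.03, adjusted p = 0.317), and by -0.66 to -0.09 over the alternative settings. It also followed the median of all genes on each array (Pearson r = 0.71 over 17 arrays). Retnla was nearly level, at -0.17 (interval -1.25 to 0.91, adjusted p = 0.868), and Stat6 differed by 0.58 (interval -0.53 to 1.70, adjusted p = 0.565). Without wildtype replicate 2 the direction of Stat6 turned, to -0.29 (adjusted p = 0.728). The differences of the other 5 genes lay between -0.62 for Ccl17 and 0.23 for Ccl24. Leaving out single arrays also turned the direction of Il13ra1 (-0.30 to 0.40), Ccl24 (-0.53 to 0.66) and Ccl17 (-1.22 to 0.06). None of these misses shows that the genotypes are alike, since the intervals of Stat6, Retnla, Chil3, Tgm2, Ccl24 and Ccl17 reach beyond 1 log2 unit on at least 1 side.

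In marrow with Dox, 0 of the 10 genes passed between the genotypes, and 0% of all genes did (0 of 22180). Limma gave Retnla alone at an unadjusted p under 0.05, against 1.83% of all genes. Retnla had -0.59, -1.33 and -0.55 in knockout marrow, against 1.68, 0.55 and 0.86 in wildtype marrow. The arrays did not overlap, and the difference was -1.86 (interval -2.93 to -0.78, unadjusted p = 0.00256, adjusted p = 1), the direction being the same in all 24 alternative settings. After quantile normalization it was -3.45 (adjusted p = 0.0994). In the same comparison, arrays were apart for 11.7% of all genes. In marrow without Dox, 0 of the 10 genes passed and 0% of all genes did. There, limma gave 0 of the 10 at an unadjusted p under 0.05, against 8.16% of all genes. Chil3 had the widest difference in that setting, -1.17 (interval -3.32 to 0.98), and it was -0.46 without the outlying array.

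**Figure D3:**
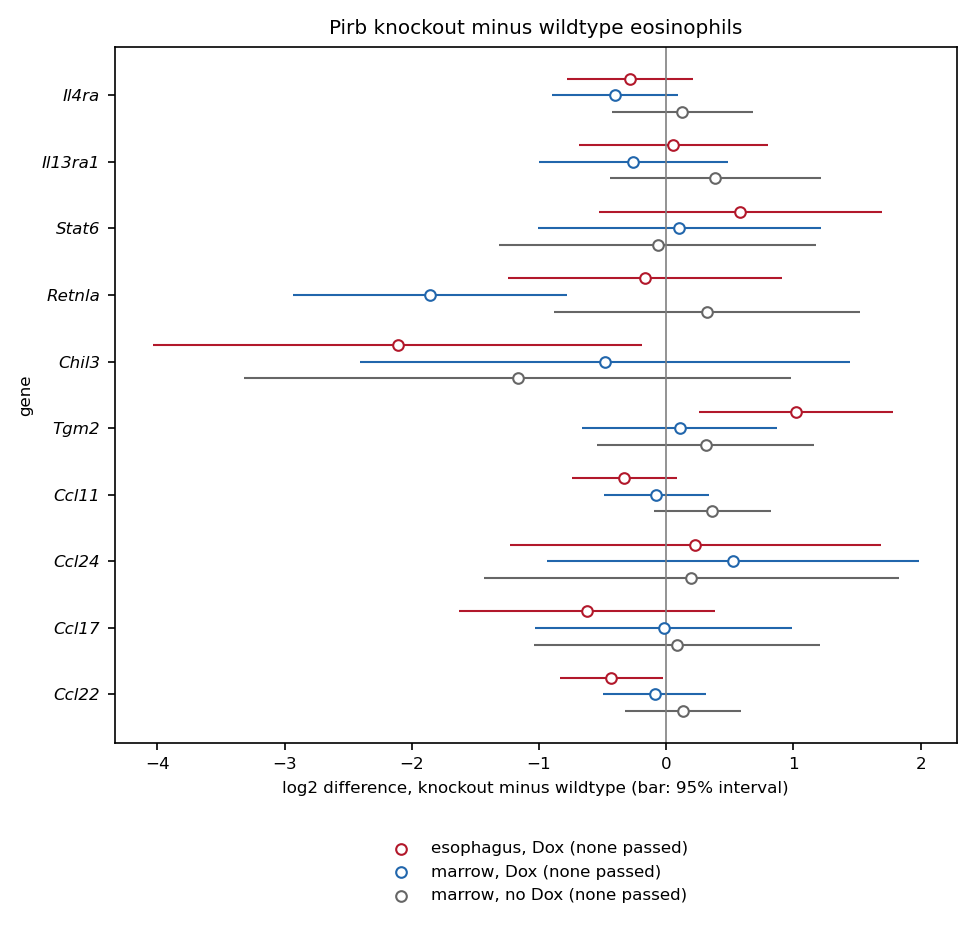
Log2 difference, knockout minus wildtype, for each gene in esophagus with Dox, marrow with Dox and marrow without Dox, with bars for the 95% interval. Points are open because none passed the test. Retnla in marrow with Dox (-1.86), and in the esophagus Chil3 (-2.11), Tgm2 (1.02) and Ccl22 (-0.43) have intervals that lie on 1 side of 0.

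Dox switches on the transgene, which all mice carried, so effects of Dox itself and of IL-13 cannot be told apart. In wildtype marrow eosinophils, Retnla was higher with Dox than without. With Dox it had 1.68, 0.55 and 0.86, against -3.57 and -2.82 without Dox. The groups lay far apart, and Retnla rose by 4.23 ± 0.56 (SE, n = 3 and 2, 18.8-fold, adjusted p = 0.0289). It was 1 of 5 genes to pass in that contrast, which is 0.0225% of all genes. In knockout marrow it had -0.59, -1.33 and -0.55 with Dox, against -3.71, -1.37 and -3.55 without. Replicate 2 without Dox lay just under the lowest Dox array, and the difference of 2.05 ± 0.50 did not pass (4.15-fold, adjusted p = 0.138). Without that replicate it was 2.81 (adjusted p = 0.0145), and without the outlying replicate 3 it was 1.72 (adjusted p = 0.396). After quantile normalization it was 0.58 (adjusted p = 0.570).

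The Dox effects of the 2 genotypes on Retnla differed by -2.18 (interval -3.79 to -0.56, adjusted p = 0.663), knockout minus wildtype, and this did not pass. Without the outlying array it was -2.51 (adjusted p = 1.00), and after quantile normalization -4.74 (adjusted p = 0.0757). The wildtype call was lost without either wildtype marrow array without Dox, any of the 3 wildtype marrow Dox arrays, marrow knockout Dox replicate 3, esophagus wildtype replicate 3, or esophagus knockout replicate 1 or 3. In those 9 fits the difference was 3.86 to 4.61 and the adjusted p 0.0537 to 0.141. It was also lost with only the groups compared, with the replicate block and with the Y-linked covariate, where the difference was 4.15 to 4.23 and the adjusted p 0.0542 to 0.174. The direction of Retnla did not change in any of the 24 settings.

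Macrophage and monocyte markers mostly differed in the same direction with Dox in marrow. Of 15 measured, 15 had a positive difference in knockout, with a median of 0.85, and 13 in wildtype, with a median of 0.94, although none passed. Without the outlying array, a comparison added after the data were seen, 11 of 15 were positive in knockout and the median was 0.27. Their array means were 0.32 to 0.74 in knockout and 0.48 to 0.49 in wildtype marrow with Dox, against -0.97 to 0.18 in knockout and -0.31 to -0.25 in wildtype marrow without Dox. Csf1r, the receptor for macrophage colony-stimulating factor, differed by 1.01 ± 0.38 in knockout (adjusted p = 0.156, or 0.63 without the outlying array) and 1.56 ± 0.42 in wildtype (adjusted p = 0.522). Their part in the Retnla result in marrow was not tested. In the esophagus, where Retnla was highest, the same markers had array means of -0.57 to -0.43 in knockout and -0.44 to -0.14 in wildtype. There, 9 of the 15 were lower than in knockout marrow with Dox and 4 lower than in wildtype marrow. Adgre1 and Cd14 were higher in both genotypes. Centred values cannot show whether a marker was absent.

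No other gene of the set passed with Dox. In knockout marrow 0 of the 10 passed, against 0.0225% of all genes, and limma gave Retnla, Ccl11 and Ccl22 at an unadjusted p under 0.05, against 27.3% of all genes. Ccl11 had -0.22, -0.27 and -0.26 with Dox in knockout marrow, against 0.00, 0.20 and 0.74 without Dox, apart by a difference of -0.57 ± 0.19 (adjusted p = 0.152). Ccl22 had -0.35, -0.18 and -0.20 with Dox, against 0.19, 0.44 and 0.48 without, also apart (-0.61 ± 0.19, adjusted p = 0.146). The highest value of both without Dox was that of the outlying array, without which the differences were -0.35 and -0.56. With array weights, which gave that array a weight of 0.0754, both passed (adjusted p = 0.0117 for Ccl11 and 0.00877 for Ccl22). In knockout marrow the arrays with and without Dox were apart for Retnla, Ccl11 and Ccl22, 3 of the 10 genes, against 36.5% of all genes. In wildtype marrow they were apart for 6 of the 10, against 25.3% of all genes. Of these, 3 were higher with Dox (Retnla, Il4ra and Tgm2, the last by 0.36 ± 0.40). The other 3 were lower (Chil3 at -0.37 ± 1.00, Ccl11 at -0.12 ± 0.21 and Ccl17 at -0.08 ± 0.52). Apart from Retnla, none of the 6 passed. Among these, Il4ra had 0.15, 0.10 and 0.80 with Dox, against -0.22 and -0.06 without (0.49 ± 0.26, adjusted p = 1.00).

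Neither interaction called any of the 10 genes, against 0.00451% of all genes for genotype by tissue and 0% for genotype by Dox. Limma gave Retnla alone at an unadjusted p under 0.05 in both, against 4.95% of all genes for genotype by tissue and 6.27% for genotype by Dox. The tissue, genotype and Dox contrasts share arrays, the marrow arrays with Dox entering all 3 kinds, so they are not independent of one another.

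The order of levels can be read within a gene. For Retnla the means were 2.86 ± 0.14 (SD) in knockout esophagus, 3.03 ± 0.10 in wildtype esophagus, -0.82 ± 0.44 in knockout marrow with Dox, 1.03 ± 0.59 in wildtype marrow with Dox, -2.88 ± 1.31 in knockout marrow without Dox (n = 3 each) and -3.20 ± 0.53 in wildtype marrow without Dox (n = 2). The order was thus esophagus, wildtype marrow with Dox, knockout marrow with Dox, and marrow without Dox, and it is a description. Neighbours in that order did not pass the test between the esophageal groups, between the marrow groups with Dox, between knockout marrow with and without Dox, or between the marrow groups without Dox. For Tgm2 the mean was 4.01 ± 0.10 in knockout esophagus and 2.99 ± 1.00 in wildtype esophagus, and all 4 marrow groups had means between -0.52 and -0.05. The 4 pairs of marrow groups that differ in genotype or Dox alone did not pass.

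The rest of the pathway was examined through 16 measured genes of 18 listed, the cytokines, other receptor chains, kinases and feedback inhibitors. Of these, 7 were higher in the esophagus in knockout and 5 in wildtype, and 0 were lower. Over all genes, 4.5% were higher and 6.04% lower in knockout, and 8.11% were higher and 7.06% lower in wildtype. The gene lists were also chosen with earlier results of these data known. Il4, encoding IL-4 itself, was higher by 2.90 ± 0.36 in knockout (adjusted p = 0.000193) and 2.37 ± 0.36 in wildtype (adjusted p = 0.00113). It had 2.87, 2.36 and 3.06 in knockout esophageal eosinophils and 1.91, 3.04 and 1.42 in wildtype ones, while marrow with Dox gave -0.12, -0.29 and 0.00 in knockout and -0.42, -0.09 and -0.24 in wildtype. Il13 did not pass (0.19 ± 0.14 in knockout, 0.36 ± 0.14 in wildtype), and Il13ra2, the decoy receptor for IL-13, differed by 0.03 ± 0.06 in knockout and 0.02 ± 0.06 in wildtype.

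The feedback inhibitors made up most of the rest. Cish rose by 2.37 ± 0.26 in knockout and 1.81 ± 0.26 in wildtype, Socs3 by 1.05 ± 0.13 in knockout and 1.59 ± 0.13 in wildtype, and Socs2 by 0.37 ± 0.11 in knockout and 0.39 ± 0.11 in wildtype. Cish, Socs2 and Socs3 encode suppressors of cytokine signalling, and which cytokines their differences follow was not tested. Socs1, the member best known for blocking STAT6 activation, did not pass (0.17 ± 0.18 in knockout, 0.41 ± 0.18 in wildtype). Ptpn1, a phosphatase known to act on STAT6, rose by 0.89 ± 0.21 in knockout and 0.82 ± 0.21 in wildtype. The phosphatase gene Ptpn2 and the kinase gene Tyk2 passed in knockout, at 0.82 ± 0.22 and 0.32 ± 0.08, and in wildtype they differed by -0.05 ± 0.22 and -0.05 ± 0.08. In the genotype, Dox and interaction contrasts, 0 of the 16 passed.

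**Figure D4:**
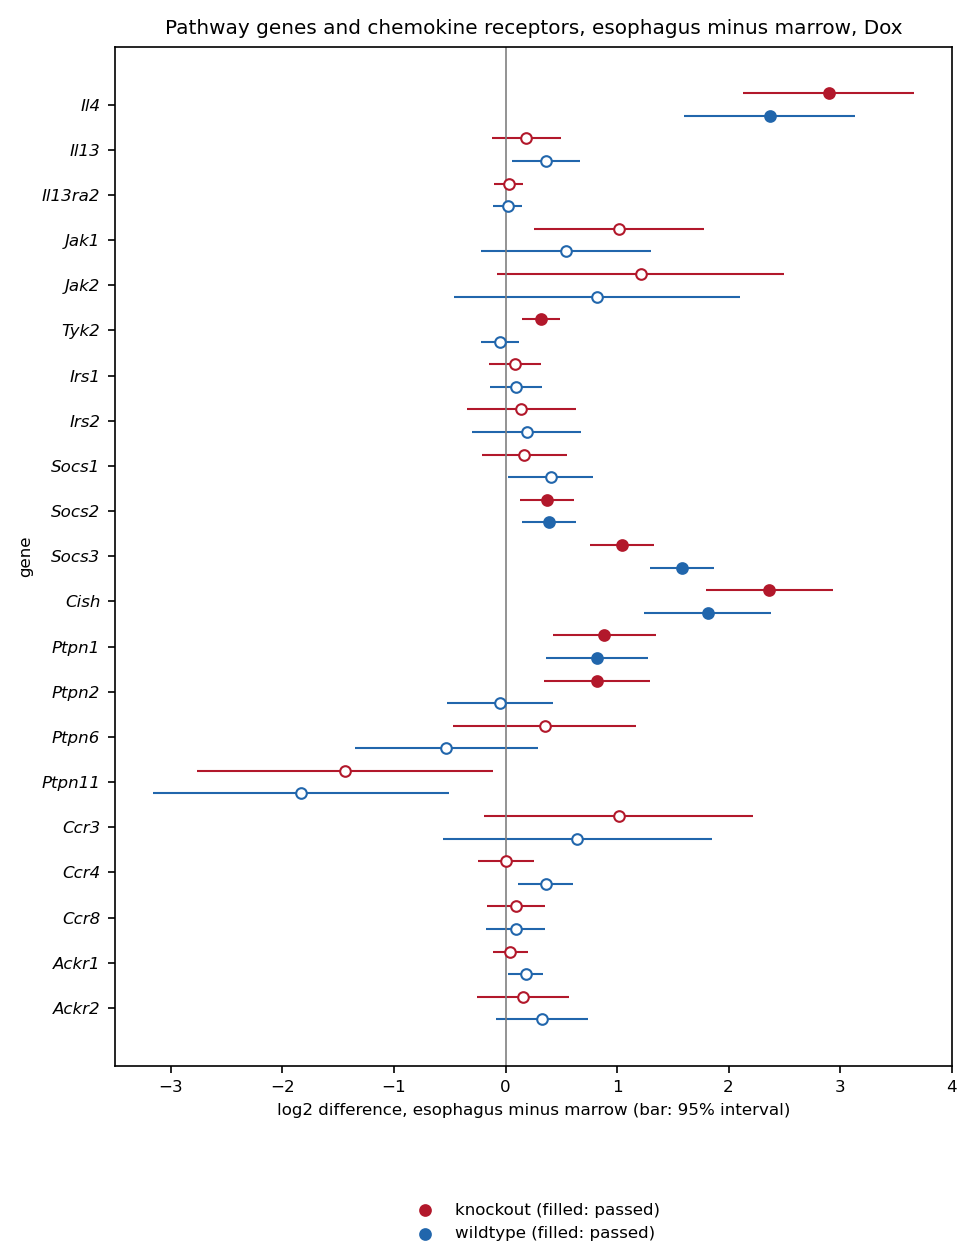
Log2 difference, esophageal minus marrow eosinophils with Dox, for the other pathway genes and for the receptors of the chemokines, in knockout and wildtype mice, with 95% intervals and filled points for differences that passed. Il4, Cish and Socs3 lie furthest to the right among the filled points, and the receptor genes at the bottom are open.

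Of 5 measured receptors for the chemokines (6 listed), 0 passed in any contrast. Ccr3, the eotaxin receptor by which the cells were sorted, differed between esophagus and marrow by 1.02 ± 0.56 in knockout (adjusted p = 0.308) and 0.64 ± 0.56 in wildtype (adjusted p = 0.397). Ccr4, the receptor of Ccl17 and Ccl22, differed by 0.00 ± 0.11 in knockout and 0.36 ± 0.11 in wildtype (adjusted p = 0.05, not under the threshold).

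A further 37 measured genes (38 listed) are known to respond to IL-4 or IL-13 in other cells. Between the tissues, 8 were higher and 4 lower in knockout, against 4.5% of all genes higher and 6.04% lower. In wildtype, 15 were higher and 4 lower, against 8.11% of all genes higher and 7.06% lower. The median difference of the 37 genes was 0.24 in knockout and 0.44 in wildtype, beside 0.06 and 0.14 over all genes in the same contrasts. Serpinb2, a serine protease inhibitor, rose by 6.16 ± 0.29 in knockout and 5.82 ± 0.29 in wildtype. Il1rn, the interleukin-1 receptor antagonist, rose by 3.27 ± 0.26 in knockout and 3.09 ± 0.26 in wildtype, and Alox15, a lipoxygenase, by 3.36 ± 0.59 in knockout and 2.95 ± 0.59 in wildtype. Ccl2 rose by 1.24 ± 0.28 in knockout and 2.24 ± 0.28 in wildtype, and Postn, the matrix protein periostin, by 1.97 ± 0.55 in knockout and 2.40 ± 0.55 in wildtype.

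Other members of that list were lower in the esophagus. Vcam1, an adhesion molecule, differed by -3.90 ± 0.27 in knockout and -4.11 ± 0.27 in wildtype, and Pparg, a nuclear receptor of alternatively activated macrophages, differed by -2.02 ± 0.38 in knockout and -2.26 ± 0.38 in wildtype. Tfec, a transcription factor, differed by -2.97 ± 0.59 in knockout and -2.43 ± 0.59 in wildtype. Mrc1, the mannose receptor, fell by 1.60 ± 0.24 in knockout, and its wildtype difference of -0.46 ± 0.24 did not pass. Egr2 was higher in knockout by 1.48 ± 0.29 and Pdcd1lg2, encoding PD-L2, in wildtype by 0.59 ± 0.12. Between genotypes, with Dox and in the interactions, 0 of the 37 passed.

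Across the 17 arrays, Tgm2 followed Stat6 (Pearson r = 0.88) and Retnla (0.79) and ran against Chil3 (-0.79). Without the outlying array these were 0.89, 0.81 and -0.83. The genes whose pattern was most like that of Tgm2 were Prkab2 (0.987), Kdm6b (0.986) and Cdkn1a (0.984). For Stat6 they were Eid3 (0.966), Arhgef1 (0.950) and Itgal (0.949), and for Retnla P2ry14 (0.897), Mir3088 (0.887) and Ebi3 (0.881). Chil3 was most like Serpini1 (0.868), Ccl17 most like Tnfaip6 (0.966), Ccl11 most like Cldn19 (0.972), Ccl24 most like Scube3 (0.826), Ccl22 most like Vmn1r191 (0.957), Il4ra most like Mir30b (0.869) and Il13ra1 most like Mir449c (0.911). All are Pearson correlations over the same 17 arrays, which share their tissue groups, and are descriptions only.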

How the data were processed

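RNA was amplified with Nugen kits and hybridized to Affymetrix 1-colour arrays, per the labels' protocols. The submitters' processing notes name Affymetrix Expression Console. The deposited log2 values (33793 probe sets, 17 arrays) had been centred per probe set by the authors: the middle values cancel out, to 2e-05, in 97.08% of probe sets. The log base and the normalization are not given in the sources used here. One wildtype marrow array without Dox had been dropped for weak signal, per the labels. Probe sets with 1 gene symbol (23521, against 1814 with several and 8458 with none) gave 22180 genes, averaging several probe sets of a gene. A filter on dim probes needs brightness and could not be applied. Limma 3.58.1 (R 4.3.3, lmFit and eBayes) fitted 6 group means to all 17 arrays, with two-sided tests adjusted by Benjamini-Hochberg per contrast at 0.05. Differences carry SEs and means SDs, and the number of arrays limits the precision. On simulated data for genotype in the esophagus (22180 genes), 74% of 100 genes shifted by 1 and 89% of 100 shifted by 2 were recovered, with 6.86% false among calls. Members and lists were chosen with earlier results of these data known. Named genes were the members, Pirb, genes of the pathway and chemokine receptor lists, at most 8 passing genes of other lists by p, and the genes most like each member. Alternatives were median centring, quantile normalization, only the groups compared, the replicate number as a block, a Y-linked covariate, the lowest-numbered probe set, array weights and leaving out each array. Deviations of same-numbered arrays had r over 0.1 in 11 of 40 pairs, not in every pair, so the numbers were not taken as pairs.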

Additional observations from a re-analysis of the deposited data

How the results depend on the processing

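Of 90 differences (10 genes in 9 contrasts) under 24 alternatives, 8 passed in the analysis reported, and none of these changed direction. Calls were lost in 53 of the 2160 recomputed values and gained in 22, and 72 values that passed in neither changed sign. With array weights, 1 of the 10 genes passed between genotypes in the esophagus (Tgm2), against 0 in the analysis reported, 2 with Dox in knockout marrow against 0, and 5 between tissues in wildtype against 3. Leaving out single arrays gave 0 to 2 for genotype in the esophagus, 0 to 1 with Dox in each genotype, and between tissues 2 to 4 in knockout and 1 to 4 in wildtype. With Dox in wildtype marrow, 0 passed with only the groups compared, the replicate block or the Y-linked covariate. Between tissues in knockout, 2 passed with median centring, 3 with the replicate block or the lowest-numbered probe set, and 6 with only the groups compared or with array weights, against 4. The cause of these moves was not tested.

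Counts over all genes moved more. For genotype in the esophagus (77 genes), they were 2 after quantile normalization, 8 with only the groups compared, 47 with the replicate block, 7 with the Y-linked covariate, 858 with array weights and 763 without marrow knockout no Dox replicate 3, 532 without esophagus wildtype replicate 1, and as few as 22 without esophagus knockout replicate 1. For genotype in marrow with Dox (0), they were 1 with the replicate block and 6 with array weights, and without Dox (0) 37 after quantile normalization and up to 6 without 1 array. For Dox in knockout marrow (5), they were 233 after quantile normalization, 0 with only the groups compared, 2 with the Y-linked covariate, 3331 with array weights and 0 to 346 without 1 array. For Dox in wildtype marrow (5), they were 3 with median centring, 126 after quantile normalization, 0 with only the groups compared, 2 with the replicate block or the Y-linked covariate, 55 with array weights and 0 to 33 without 1 array. Between tissues in knockout (2336), they were 4451 with only the groups compared, 6117 with array weights and 1538 to 4175 without 1 array. Between tissues in wildtype (3366), they were 2048 after quantile normalization, 1629 with the Y-linked covariate, 8210 with array weights and 1335 to 8092 without 1 array. The share of higher calls there was 1799 of 3366, against 1181 of 2919 with median centring and 803 of 2048 after quantile normalization. For genotype by tissue (1), they were 0 after quantile normalization, 5 with only the groups compared, 35 with array weights and up to 34 without 1 array, and for genotype by Dox (0) they were 3 with array weights and up to 4 without 1 array.

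The replicate block changed the call of Retnla with Dox in wildtype marrow (4.15, adjusted p = 0.0871), of Chil3 between tissues in knockout (-2.98, adjusted p = 0.0744) and of Ccl17 between tissues in wildtype (1.44, adjusted p = 0.0451), and it changed no other call of the 10 genes. In deviations from the group means, 8 of 17 arrays correlated best with an array of their own number in another group. This does not settle whether the numbers pair samples. Median centring moved the median of all genes from -0.13 to -0.02 for Dox in knockout marrow, from 0.14 to 0.03 between tissues in wildtype, and from -0.12 to -0.01 for genotype by Dox.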
